A study of Felis catus with 12 samples.

Results

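The segregase gene VCP, its cofactor genes and the core ligase and channel genes of endoplasmic reticulum-associated degradation (ERAD) were examined in left ventricular tissue of cats. The 10 genes, VCP, UFD1, NPLOC4, FAF1, FAF2, UBXN4, SYVN1, SEL1L, DERL1 and DERL2, were chosen by name for their place in this pathway, and were 10 of 30785 genes listed. All 10 passed the filter on depth, a minimum of 10 reads in 3 or more of the 10 libraries whose outcome is known, which left 8715 genes to test. SYVN1 passed with exactly 3 such libraries, those of cats 11, 31 and 38.

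VCP is a ring-shaped ATPase that pulls ubiquitin-tagged proteins out of membranes and complexes. At the endoplasmic reticulum (ER), misfolded proteins are recognised in the lumen, moved across the membrane through a channel formed by the ligase SYVN1 with its partner SEL1L and the derlins, tagged with ubiquitin, and extracted by VCP for the proteasome. VCP is directed to these substrates by the UFD1-NPLOC4 heterodimer and by adaptors with a UBX domain, among them FAF1, FAF2 and UBXN4, and inherited VCP variants cause a disease of muscle, bone and brain.

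Tissue was collected post mortem from the left ventricular free wall, and its RNA was sequenced directly, without conversion to cDNA, in 1 library per cat and 12 libraries in all. Each of 3 flow cells carried 4 libraries: cats 11, 23, 30 and 31 on flow cell A, cats 10, 15, 35 and 36 on flow cell B, and cats 22, 29, 37 and 38 on flow cell C. By the study's list of cats, 6 fell in its group with congestive heart failure (HF; cats 11, 15, 30, 31, 35 and 37). Its group with arterial thromboembolism (ATE) held 3 (cats 10, 23 and 38), and 1 had no known cardiac cause of death (cat 36). For cat 10 the study lists heart failure as well as ATE, so the 2 groups do not set heart failure against its absence. Cats 22 and 29, named by the labels, belong to the study's cohort, but its list of sequenced cats has cats 16 and 25 in their place. These 2 libraries were therefore kept out of the comparisons of outcome, age and fibrosis and entered only the alternatives named as such. Disease had arisen naturally, the labels give no treatment or genotype, and a group is therefore a set of different animals. The libraries held 789257 to 2263110 reads on genes. The cardiomyocyte markers TNNT2, TNNI3, ACTC1, MYL2 and RYR2 were read in every library, with at least 343 reads each. The markers of fibroblasts, endothelium and smooth muscle were read in every library as well. Among them were DCN (135 to 1202 reads), VWF (124 to 756) and ACTA2 (43 to 228). Others fell to few reads, such as COL1A1 (2 to 214), PDGFRA (6 to 54), KDR (10 to 124) and MYH11 (1 to 20). Of 4 adipocyte markers, PLIN1 was read in every library, at 1 to 14 reads, and none exceeded 14 reads. CIDEC had no read in 11 libraries, ADIPOQ in 9 and LEP in 6.

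A level below is the deposited value, which is the reads of a gene divided by 1 size factor per library. It compares libraries for 1 gene, and is not corrected for transcript length, so levels of different genes are not compared. Together the 10 genes made up 0.0508% to 0.0835% of a library's reads (median 0.0652%). In bulk tissue, fewer cells of a type and less RNA per cell cannot be told apart.

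VCP, the segregase itself, was read most deeply, with 116 to 738 reads per library. Its level was 356, 269, 174 and 362 in cats 11, 23, 30 and 31 of flow cell A. On flow cell B it was 333, 181, 373 and 240.4 in cats 10, 15, 35 and 36, and on flow cell C it was 157, 208, 230.3 and 223 in cats 22, 29, 37 and 38. The highest library, cat 35, thus had 2.38 times the level of the lowest, cat 22. High and low libraries stood on the same flow cell, with cat 30 far below cats 11 and 31 on A and cat 15 far below cats 10 and 35 on B. The coefficient of variation over the 12 libraries was 30.2%, where counting error alone gives 6.14%, so the spread between libraries was 4.92 times that of counting.

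**Figure D1:**
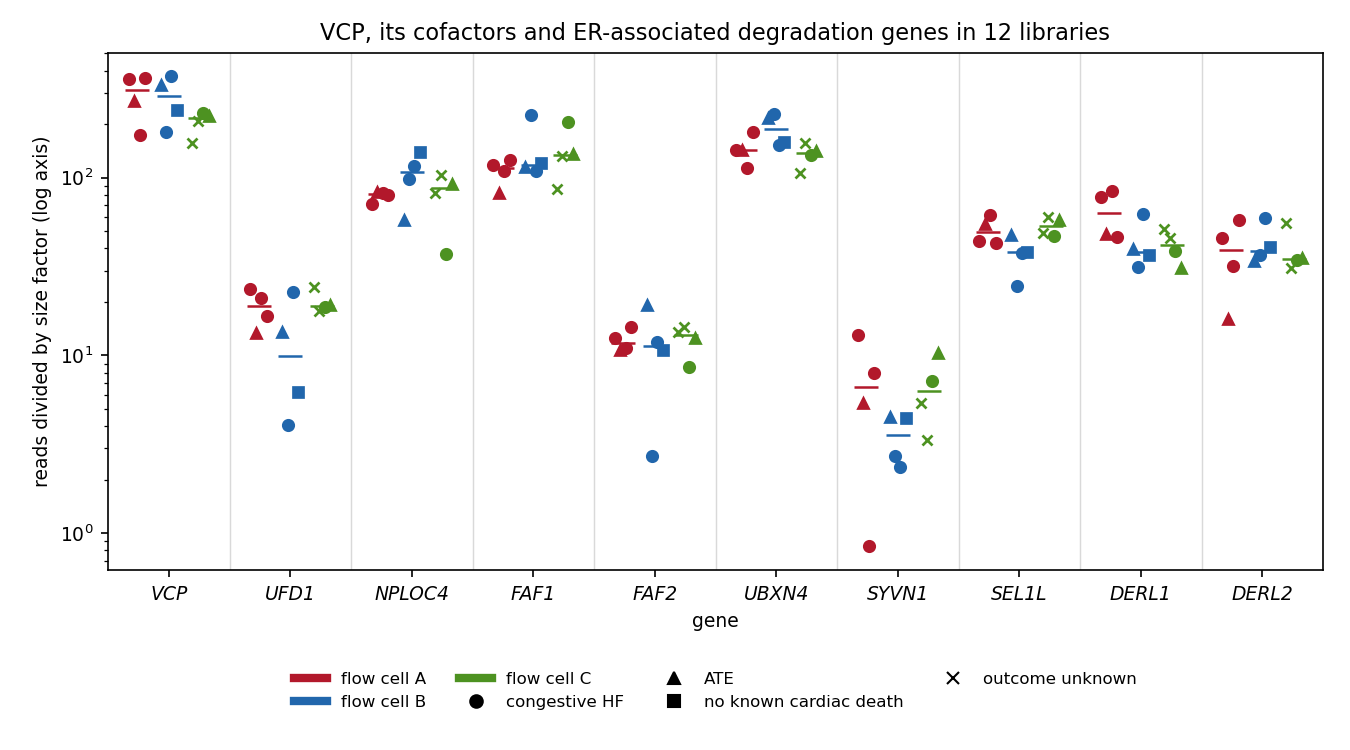
Level of each gene (y axis, reads divided by size factor, log axis) in the 12 libraries, coloured by flow cell and shaped by outcome. Short lines mark the median of each flow cell. For every gene the flow cells overlap. Cat 15 is the lowest point of UFD1 and of FAF2, and cat 30 that of SYVN1.

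UFD1 and NPLOC4 encode the partners of the heterodimer that recruits VCP to ubiquitin chains. UFD1 was shallowly read, with 3 to 49 reads. Its level was 23.6, 13.4, 21.0 and 16.7 in cats 11, 23, 30 and 31, and 24.3, 17.7, 18.6 and 19.1 in cats 22, 29, 37 and 38. On flow cell B it was 13.5, 4.08, 22.8 and 6.23 in cats 10, 15, 35 and 36. Cats 15 and 36 lay below all others, at 3 and 7 reads. These counts came to 3.08 RPM (reads per 1000000 reads on genes) in cat 15 (95% Clopper-Pearson interval 0.634 to 8.99) and 3.98 in cat 36 (1.60 to 8.21). Cat 36 had 1756702 reads on genes, so its library was not a shallow one. In cat 11, UFD1 had 21.7 RPM (16 to 28.6). Such intervals cover counting error only.

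NPLOC4 did not share these lows. Its level was 70.9, 83.3, 81.65 and 79.8 on flow cell A, 57.5, 98.0, 116 and 139 on flow cell B and 82.4, 103, 37.2 and 91.9 on flow cell C, in the cat order given above. Cat 36, second lowest for UFD1, was the highest of all for NPLOC4, and cat 37 the lowest, at 26 reads. On flow cell A the 4 libraries lay close together, at 78.9 ± 5.50 (SD, n = 4).

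Within a library, the ratio of the reads of a pair of genes does not depend on the size factor. NPLOC4 had between 2.00 (cat 37) and 24.0 (cat 15) times the reads of UFD1, with a median of 4.78. The ratio was 24.0 in cat 15 (72 and 3 reads, exact 95% interval 7.89 to 119) and 22.3 in cat 36 (156 and 7 reads, 10.6 to 56.3). In the other 10 libraries it lay between 2.00 and 6.20. The interval of cat 36 began above the ratio of each of these 10 libraries. The pairs of genes were chosen after their values were seen, and their ratios are descriptions without a test.

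Among the UBX-domain adaptors, FAF1 binds VCP with UFD1-NPLOC4 and ubiquitinated substrates. Its level was 117, 81.9, 109 and 125 on flow cell A, 115, 226, 109 and 120.2 on flow cell B and 86.4, 132, 206 and 136 on flow cell C. Cats 15 and 37, both with congestive HF, stood above the other 10 libraries, which reached 136. In RPM FAF1 was also highest in these cats, at 170.2 (95% interval 145 to 198) and 169 (142 to 199), against 113 (97.6 to 131) in cat 38, the next library. Their libraries were not deep, with 975157 and 852825 reads on genes, of which 166 and 144 were of FAF1.

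FAF2, an adaptor inserted in the membrane of the ER and of lipid droplets, had 2 to 26 reads. Its level was 12.5, 10.7, 10.9 and 14.4 on flow cell A, 19.2, 2.72, 11.8 and 10.7 on flow cell B and 13.5, 14.4, 8.58 and 12.5 on flow cell C. Apart from the 2 reads of cat 15 the libraries were alike, and the coefficient of variation of 33.0% was near the 29% of counting error. FAF1 had 83.0 times the reads of FAF2 in cat 15 (22.6 to 691) and 24.0 times in cat 37 (10.8 to 66.5), whereas the other 10 libraries lay between 6.00 and 11.3.
UBXN4, an ER membrane protein that binds VCP, had 79 to 296 reads. Its level was 143, 142, 113 and 181 on flow cell A, 215, 227, 153 and 158 on flow cell B and 107, 157, 134 and 141 on flow cell C. Cats 10 and 15 were the highest and cat 22 the lowest. Its coefficient of variation, 23.3%, and that of SEL1L, 22.7%, were the smallest among the 10 genes.

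FAF1 set against VCP rested on the most reads of the pairs examined. The ratio of FAF1 to VCP reads ran from 0.292 in cat 35 (0.24 to 0.353) to 1.25 in cat 15 (0.988 to 1.58), with a median of 0.53. It was at most 0.346 in cats 10, 11, 23, 31 and 35 and at least 0.5 in the other 7 libraries. The intervals of cats 15 and 37, at 1.25 and 0.894 (0.709 to 1.13), lay above those of cats 10, 11, 23, 31, 35 and 36. Cats of both outcomes and of flow cells A and B were in the low set.

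SYVN1, the RING-domain ubiquitin ligase of the retrotranslocation complex, was close to the limit of detection. It had 27, 4, 1 and 10 reads in cats 11, 23, 30 and 31, 4, 2, 3 and 5 in cats 10, 15, 35 and 36, and 4, 3, 5 and 14 in cats 22, 29, 37 and 38. In 9 of the 12 libraries this was at most 5 reads. Cat 11 had 11.9 RPM (7.86 to 17.4) and cat 30 had 0.823 (0.0208 to 4.58), whose intervals do not meet. The coefficient of variation was 62.2%, against 41.1% from counting error.

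SEL1L, which holds SYVN1 in the complex, had 18 to 91 reads. Its level was 43.9, 55.1, 61.4 and 43.1 on flow cell A, 47.3, 24.5, 37.8 and 38.3 on flow cell B and 48.6, 59.9, 47.2 and 58.1 on flow cell C. Cat 15 was the lowest and cats 35 and 36 the next, so the 3 lowest libraries were all on flow cell B.

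DERL1 and DERL2 encode derlins, rhomboid-like membrane proteins that lack protease activity and form part of the channel. The level of DERL1 was 77.7, 48.4, 84.2 and 46.3 on flow cell A, 39.5, 31.3, 62.2 and 36.5 on flow cell B and 51.3, 45.4, 38.6 and 30.9 on flow cell C. That of DERL2 was 45.9, 16.1, 32.0 and 57.4 on A, 33.8, 36.8, 59.1 and 41.0 on B and 55.4, 31, 34.3 and 35.3 on C. Cats 30 and 11 were the highest for DERL1, whereas cat 23 had the lowest DERL2 level, at 12 reads. DERL1 had 3.00 times the reads of DERL2 in cat 23 (1.53 to 6.33), 2.63 times in cat 30 (1.79 to 3.93) and 1.69 times in cat 11 (1.31 to 2.21). In the other 9 libraries the ratio was 0.806 to 1.46, and each of their intervals included 1. The fourth library of flow cell A, cat 31, had the lowest ratio of all 12.

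**Figure D2:**
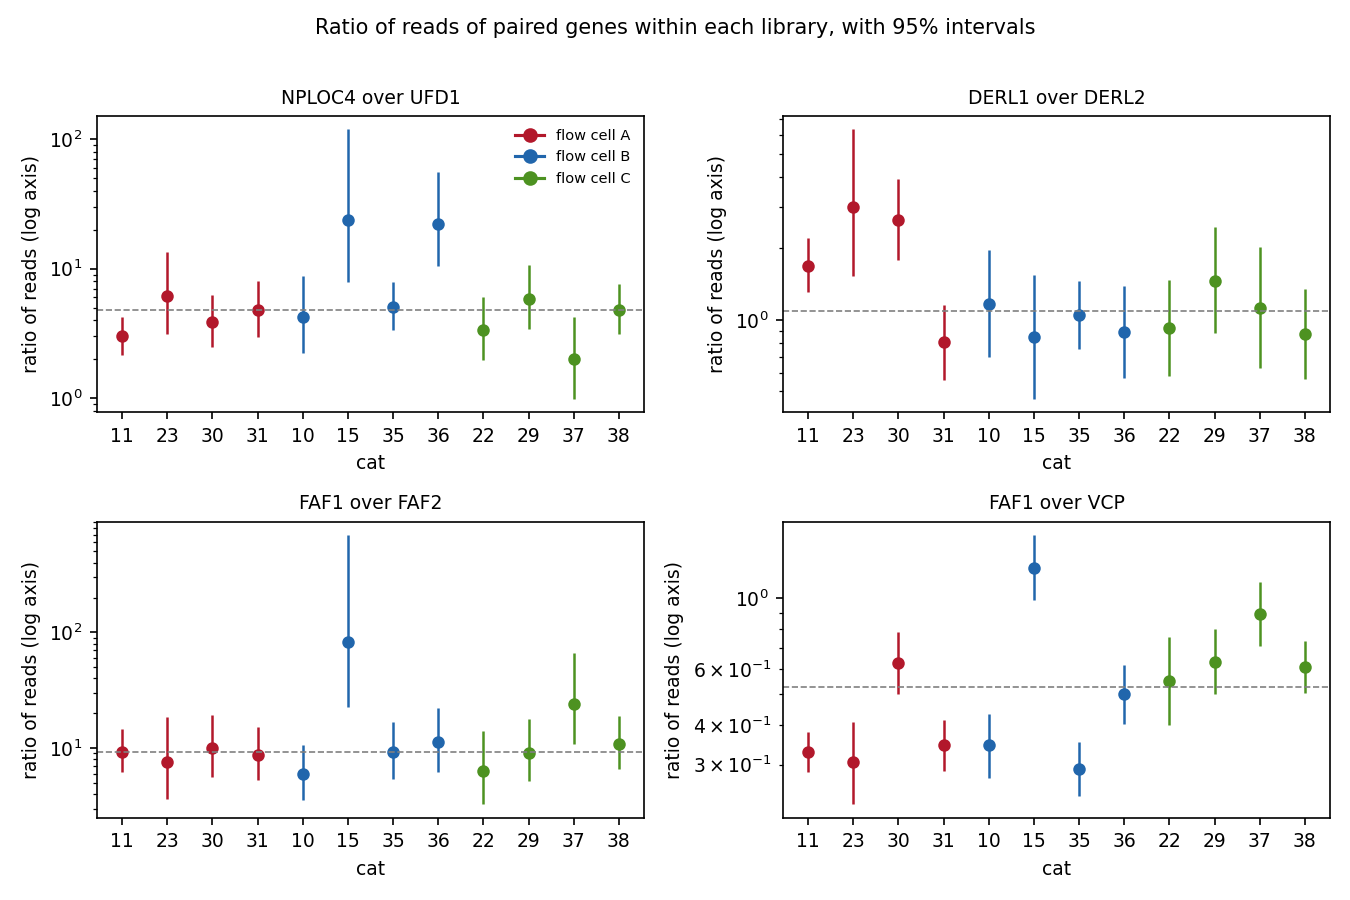
Ratio of the reads of 2 genes in each library (y axis, log axis), with exact 95% intervals that cover counting error, and cats on the x axis coloured by flow cell. The dashed line is the median of 12 libraries. Cats 15 and 36 stand apart for NPLOC4 over UFD1, cats 15 and 37 for FAF1 over FAF2, and cats 11, 23 and 30 for DERL1 over DERL2.

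The flow cell is a grouping that the sample labels give, and it was compared first. The labels also give each library a barcode, which was not compared. Differences are in log2(value + 1) and were tested with limma over the 8715 genes. Between flow cell A and flow cells B and C, 0 of the 10 genes had an adjusted p under 0.05, where 446 of all tested genes (5.12%) did. DERL1 alone had an unadjusted p under 0.05, 1 of 10 genes against 21.4% of all genes. Its level was 46.3 to 84.2 on A (median 63.0, n = 4) and 30.9 to 62.2 on B and C (median 39.0, n = 8). The groups overlapped through cats 23 and 31 of A and cats 22 and 35 of the others. The log2 difference was 0.59 with an SE of 0.25 (unadjusted p = 0.0304, adjusted p = 0.180, limma).
For the other 9 genes the difference ran from -0.33 for FAF1 to 0.38 for UFD1, with adjusted p from 0.463 to 0.904 (limma). For VCP it was 0.25 (95% interval -0.28 to 0.78), for FAF1 -0.33 (-0.85 to 0.19) and for UFD1 0.38 (-0.50 to 1.25). The median of the 10 genes was 0.16, and that of all tested genes 0.03. None of the 10 genes separated the groups without overlap, where 4.23% of all genes did. UFD1 took the opposite sign against flow cell C alone, at -0.11, and FAF1 with reads that were not scaled, at 0.06.

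Flow cells B and C differed by 0 genes in all at an adjusted p under 0.05 (0%), and by 686 (7.87%) at an unadjusted one (limma). edgeR's quasi-likelihood test called 0 genes as well. Among the 10 genes, UFD1 and SEL1L were below the unadjusted threshold, both lower on B. UFD1 ranged from 4.08 to 22.8 on B and from 17.7 to 24.3 on C. The log2 difference was -0.97 with an SE of 0.43 (unadjusted p = 0.0374, adjusted p = 0.605, limma), with cats 15 and 36 as the low libraries of B. Without cat 15 it was -0.61 (unadjusted p = 0.145, limma), and with edgeR's quasi-likelihood test -0.71 (unadjusted p = 0.132). For SEL1L, B reached 47.3 and C began at 47.2, and the difference was -0.55 with an SE of 0.26 (unadjusted p = 0.0485, adjusted p = 0.629, limma). UBXN4 was at 0.47 with an SE of 0.23 (unadjusted p = 0.0539, adjusted p = 0.636, limma). None of the 10 genes separated B from C without overlap, where 4.2% of all genes did.

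Congestive HF and ATE are the outcomes that the study set against each other. In 6 and 3 cats, 0 of the 10 genes and 0 of all 8715 (0%) had an adjusted p under 0.05, and 0 of the 10 genes and 384 of all (4.41%) had an unadjusted one (limma). edgeR's quasi-likelihood test on recovered reads also called 0 genes, and DESeq2 called 1, which was none of these. The groups overlapped for each of the 10 genes, whereas 2.18% of all genes had groups that did not.
DERL2 had the largest difference of the 10. Its level was 32.0 to 59.1 with congestive HF (median 41.3, n = 6) and 16.1, 33.8 and 35.3 with ATE (cats 23, 10 and 38). The values of cats 10 and 38 lay within the congestive HF range and that of cat 23 below it. The log2 difference was 0.66 with an SE of 0.34 (unadjusted p = 0.0716, adjusted p = 0.960, limma), and 0.69 with flow cell as a covariate (unadjusted p = 0.0662). Without cat 23 it was 0.31.
FAF1 was at 109 to 226 with congestive HF (median 121, n = 6) and at 81.9, 115 and 136 with ATE, again with overlap. The log2 difference was 0.38 (95% interval -0.29 to 1.05, unadjusted p = 0.242, adjusted p = 0.960, limma). With flow cell as a covariate it was 0.51 with an SE of 0.27 (unadjusted p = 0.0788). It was 0.18 without cat 23 and 0.25 without cat 15, 1 of the 2 cats with the highest FAF1.
VCP was at 174 to 373 with congestive HF (median 293, n = 6) and at 223, 269 and 333 with ATE, a difference of -0.03 (-0.70 to 0.64). UFD1 was at 4.08 to 23.6 (median 19.8, n = 6) and at 13.4, 13.5 and 19.1, a difference of 0.06 (-0.98 to 1.10). For NPLOC4 the difference was 0.00 (-0.73 to 0.74). These intervals include changes of over 1.5-fold in either direction, so the comparison bounds the differences and does not show the outcomes to be alike. The medians over the 10 genes and over all tested genes were -0.01 and -0.00.

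**Figure D3:**
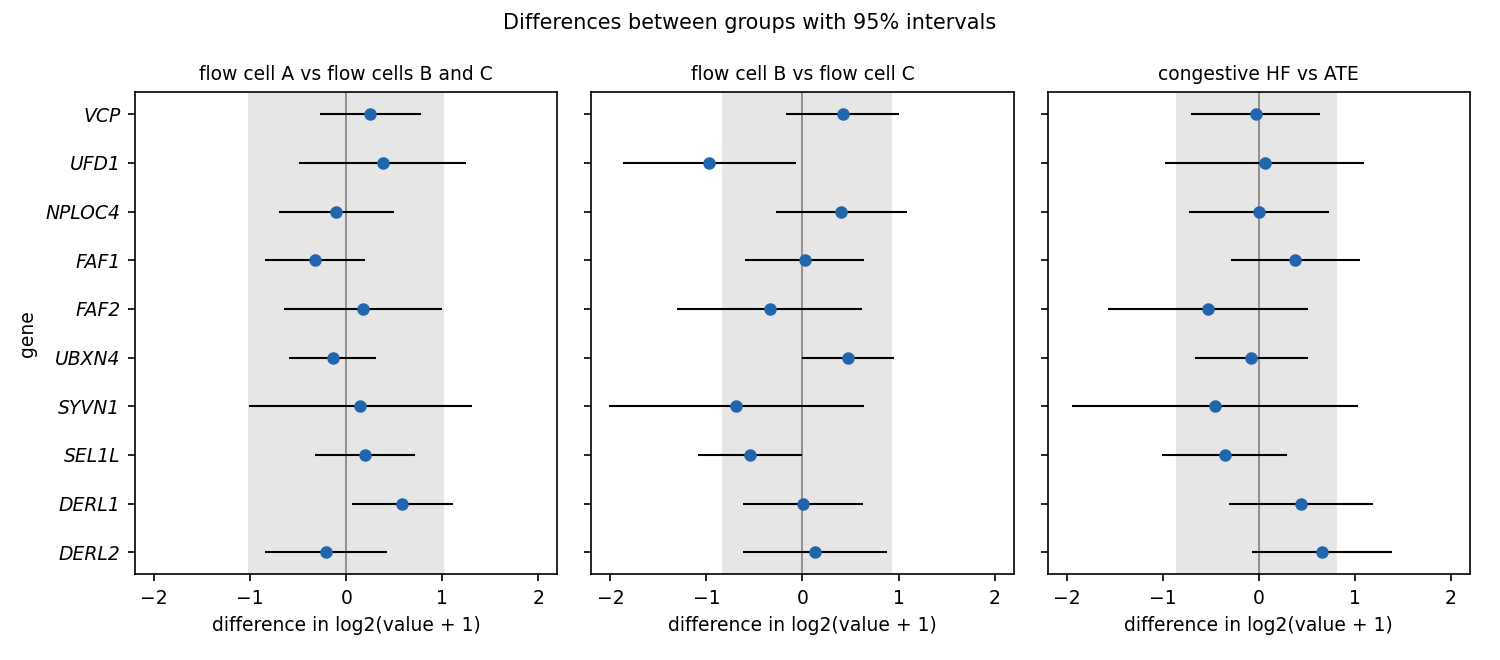
Difference in log2(value + 1) of each gene between flow cells and between outcomes (points) with 95% intervals from limma (lines). Grey bands span the 5th to the 95th percentile of the differences of all 8715 tested genes. All points lie within the bands apart from UFD1 between flow cells B and C.

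The study ranked genes by their rank correlation with each trait, and age and myocardial fibrosis per cat were taken from its list of animals. In 9 cats with an age, 0 of the 10 genes and 0 of all genes (0%) had an adjusted p under 0.05, and 1 of the 10, DERL2, and 4.76% of all genes had an unadjusted one (Spearman's rho, two-sided exact permutation). Spearman's rho was below 0 for 8 of these 10, with a median of -0.21, against -0.02 over all genes. limma slopes on age, without and with flow cell as a covariate, also called 0 genes. With 9 cats the smallest exact p is 5.51e-06, so a single gene passes adjustment over 8715 genes only at a perfect rank order, and the count of 0 says little about a relation with age.
Ordered from the youngest cat to the oldest (cats 36, 31, 11, 38, 10, 37, 23, 15 and 30), the level of DERL2 was 41.0, 57.4, 45.9, 35.3, 33.8, 34.3, 16.1, 36.8 and 32.0. The 3 youngest cats were the 3 highest. Spearman's rho was -0.73 (exact permutation p = 0.0311, adjusted p = 0.897), Pearson's r on log2(value + 1) was -0.59 (exact permutation p = 0.0822, adjusted p = 0.962), and within flow cells r was -0.59 (exact permutation p = 0.247). With the 2 remaining libraries entered under their labels, as cats 22 and 29, rho over 11 cats was -0.35 for DERL2 and VCP alike (permutation p = 0.284 for each) and -0.35 for SYVN1 (permutation p = 0.301). Entered as cats 16 and 25 of the study's list, in either order, rho was -0.72 or -0.68 for VCP (permutation p = 0.0148 and 0.0243). It was -0.50 or -0.61 for DERL2 (permutation p = 0.124 and 0.0533) and -0.60 or -0.65 for SYVN1 (permutation p = 0.0572 and 0.0343). The p-values of these alternatives were not adjusted.
In the same order, VCP was at 240.4, 362, 356, 223, 333, 230.3, 269, 181 and 174. The 2 oldest cats were the 2 lowest. Spearman's rho was -0.67 (exact permutation p = 0.0589, adjusted p = 0.911), r was -0.66 (exact permutation p = 0.0567, adjusted p = 0.962), and within flow cells r was -0.77 (exact permutation p = 0.0660). When the pair farthest from the median age was left out, r moved to -0.23 (cats 30 and 15) or stayed at -0.68 (cats 30 and 36, equally far). Spearman's rho ran from -0.83 to -0.52 with 1 cat left out, and was -0.52 without cat 15 and without cat 30.
SYVN1 had 5, 10, 27, 14, 4, 5, 4, 2 and 1 reads in this order. The coefficients are of its level, in which these reads are divided by the size factor. Spearman's rho was -0.55 (exact permutation p = 0.133, adjusted p = 0.921) and r was -0.76 (exact permutation p = 0.0147, adjusted p = 0.962). Within flow cells r was -0.83 (exact permutation p = 0.0139, not adjusted). For the unscaled reads listed here, rho was -0.78 (unadjusted exact permutation p = 0.0166). Leaving out cats 30 and 15 brought r of the level to -0.29, and leaving out cats 30 and 36, equally far from the median age, to -0.81. The number of reads on genes also fell with age in these 9 cats (r = -0.72, exact permutation p = 0.0308; rho = -0.70, exact permutation p = 0.0433, adjusted over 2 traits 0.0865). Its part in these relations was not tested. SEL1L, with a rho of 0.42 (exact permutation p = 0.270), and DERL1, with 0.22 (exact permutation p = 0.581), were the genes with a positive rho. FAF1 was at -0.13 (exact permutation p = 0.744) and UFD1 at -0.02 (exact permutation p = 0.982).

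In 8 cats with a myocardial fibrosis percentage, 0 of the 10 genes and 0 of all genes (0%) had an adjusted p under 0.05, and 0 of the 10 and 2.83% of all had an unadjusted one (Spearman's rho, two-sided exact permutation). With 8 cats the smallest exact p is 4.96e-05, and at least 9 genes would have to reach it for any to pass the adjusted threshold. The count of 0 and the adjusted p of 1 for each of the 10 therefore say nothing about a relation with fibrosis. limma slopes, which do not have this limit, called 0 genes. UFD1 and SYVN1 had the largest coefficients, -0.50 and 0.50 (exact permutation p = 0.216 for each). From the least to the most fibrotic (cats 35, 30, 38, 36, 10, 11, 15 and 23) the level of UFD1 was 22.8, 21.0, 19.1, 6.23, 13.5, 23.6, 4.08 and 13.4. High levels were found in the 3 least fibrotic cats and in cat 11. Pearson's r was -0.54 (exact permutation p = 0.147) but only -0.18 once cats 23 and 15, with the most extreme fibrosis, were left out. Without cat 11, rho was -0.82 (exact permutation p = 0.0341, not adjusted).
Within flow cells, where 7 cats remained, r was 0.84 for UBXN4 (exact permutation p = 0.0278) and -0.88 for DERL1 (exact permutation p = 0.0347). Their rho over 8 cats was 0.33 (exact permutation p = 0.428) and -0.21 (exact permutation p = 0.619). These within-cell p-values are 2 of 10 and were not adjusted. The within-cell test was run for the 10 genes only, so no share over all genes can be set beside them. FAF1 was at 0.12 (exact permutation p = 0.793) and VCP at -0.02 (exact permutation p = 0.977). FAF1 and UFD1 were named by the study for nucleus size, which was not used here.

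**Figure D4:**
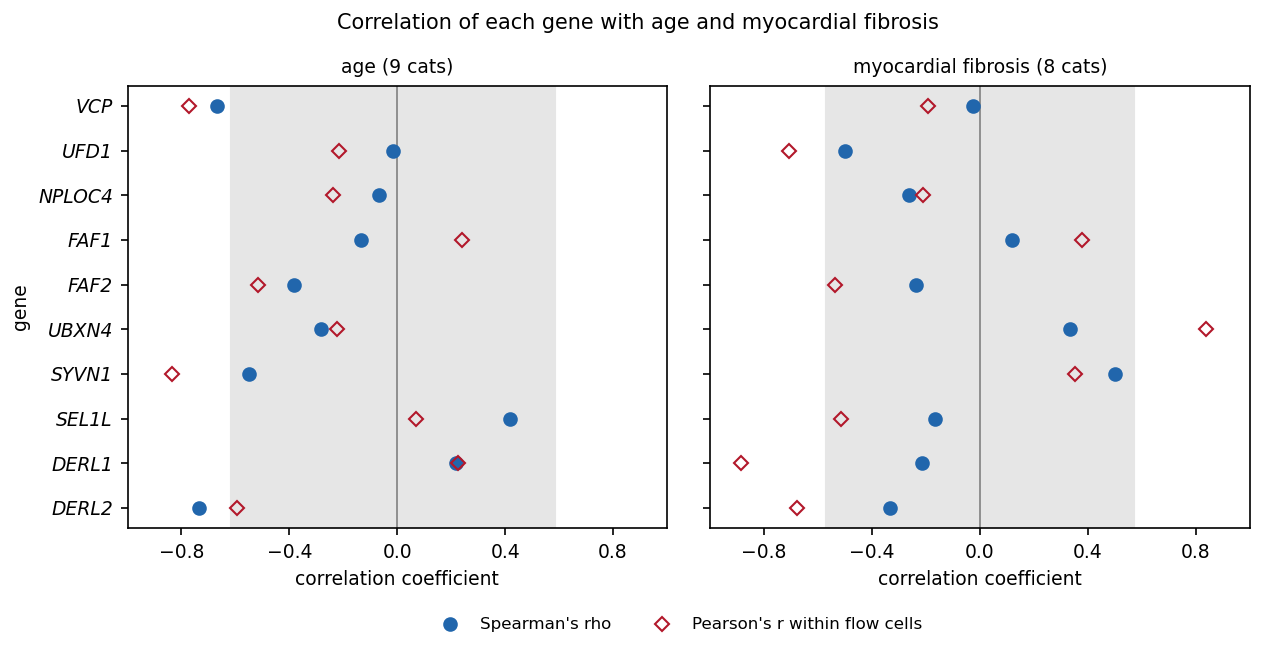
Spearman's rho of each gene with age in 9 cats and with myocardial fibrosis in 8 cats (filled circles), and Pearson's r after each flow cell was centred (open diamonds). Grey bands span the 5th to the 95th percentile of rho over all 8715 tested genes. DERL2 and VCP lie below the band for age, and none of the filled circles lies outside it for fibrosis.

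No common rise and fall of the 10 genes was seen from library to library. Over 12 libraries, which share depth and flow cell, rho was positive for 24 of 45 pairs, with a median of 0.06 and a range from -0.72 to 0.62. With flow cell means subtracted, 28 pairs were positive and the median was 0.07. The highest pair in both was UFD1 with DERL1, at 0.62 and 0.66. UFD1 and its partner NPLOC4 were at -0.24 and -0.23, SYVN1 and its partner SEL1L at 0.03 and -0.27, and DERL1 and DERL2 at 0.13 and 0.19. VCP was at 0.50 with UFD1, 0.54 with FAF2 and 0.50 with SYVN1 after centring, of which only FAF2 and SYVN1 were above 0 without it, at 0.20 and 0.25. The lowest pairs were FAF1 with DERL1 at -0.72 and UFD1 with UBXN4 at -0.71, which were -0.34 and -0.38 after centring. SEL1L with DERL2 was at -0.69 and, after centring, at -0.51. The lowest pair after centring was UBXN4 with DERL1 at -0.67, which was -0.41 without it. These coefficients are descriptions over 12 points. For FAF2, SYVN1, SEL1L and UFD1 the spread was only 1.14, 1.51, 1.54 and 1.60 times that of counting, so a shared pattern could be missed.

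**Figure D5:**
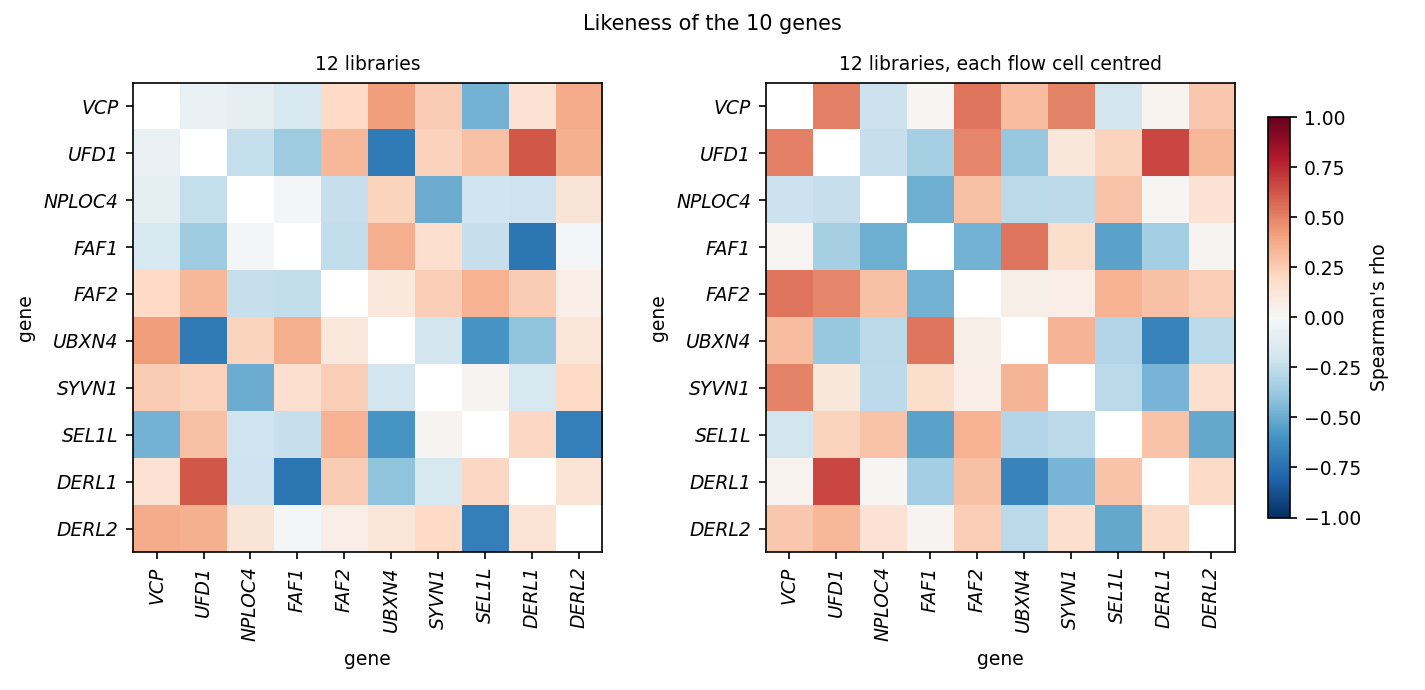
Spearman's rho between the levels of each pair of the 10 genes over 12 libraries (left) and with flow cell means subtracted (right), from -1 in blue to 1 in red, with the diagonal left white. Of the 45 pairs, 24 are positive at left and 28 at right, and UFD1 with DERL1 is the reddest pair in both panels.

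Among all 8714 other tested genes, those most like VCP after centring were CSF1R (rho 0.94, 7 to 85 reads), which encodes a receptor of macrophages, LOC109499065 (0.94, 2 to 41 reads) and IL7R (0.93, 0 to 17 reads), a lymphocyte receptor. Most like FAF1 were EXOSC10, a subunit of the nuclear RNA exosome (0.95, 2 to 49 reads), USP31 (0.93, 38 to 173 reads) and RPP38 (0.92, 2 to 29 reads). Most like UFD1 were TBC1D10B (0.97, 1 to 31 reads), GGCX, the vitamin K-dependent carboxylase (0.96, 3 to 37 reads), and SP100 (0.92, 0 to 29 reads). They are the highest of many coefficients over 12 libraries, and most rest on few reads. The 4 macrophage and leukocyte markers, of which CSF1R is one, summed to 34.9 to 424 RPM in a library, and the part of such cells in the level of VCP was not tested.

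Beyond the 10 genes, 87 genes of the same machinery were listed, of which 85 had a row and 73 were tested. Between flow cell A and the others, 1 of the 73 (1.37%, against 5.12% of all genes) passed the adjusted threshold and 11 (15.1%, against 21.4%) had an unadjusted p under 0.05. The former was UBXN6, another UBX-domain cofactor of VCP, which acts in lysosomal damage and endocytic sorting. Its level was 85.0 to 163 on A (median 125, n = 4) and 158 to 351 on B and C (median 198, n = 8), so the groups overlapped narrowly. The log2 difference was -0.87 with an SE of 0.24 (adjusted p = 0.0462, limma). The call was narrow: with edgeR's quasi-likelihood test the adjusted p was 0.0521, and with 1 cat left out it ran from 0.043 to 0.117 and stayed under 0.05 only without cat 10 or cat 22.
The 29 tested genes of ERAD in membrane and lumen, among them HERPUD1, OS9 and EDEM1, had 0 calls and a median difference of 0.08, against 0.03 over all genes. The 17 other tested partners of VCP, UBXN6 among them, had a median of -0.04, and the 8 genes that hand substrates to the proteasome, such as BAG6 and RAD23B, one of -0.21.
The 19 tested genes of the unfolded protein response, the transcriptional programme that raises ER chaperones, had 0 calls, a median difference of 0.37 and a positive one in 14. HSPA5, the ER chaperone used to gauge this response, was at 191 to 350.4 on A (median 260.2) and 114 to 244 on B and C (median 158). Its log2 difference was 0.68 with an SE of 0.22 (unadjusted p = 0.00679, adjusted p = 0.0827, limma). The 4 smooth muscle and pericyte markers summed to 371 to 809 RPM on A and to 83.7 to 281 on the other flow cells. Of these markers, TAGLN reached 1542 reads in a library, and ACTA2, RGS5 and MYH11 at most 228, 70 and 20. The 5 fibroblast markers summed to 639 to 2516 RPM on A, 186 to 510 on B and 578 to 1256 on C. The part of either cell type in these differences was not tested.
For outcome, age and fibrosis, 0 of the 73 genes passed the adjusted threshold, and 4, 5 and 2 the unadjusted one. These were 5.48%, 6.85% and 2.74% of the 73, against 4.41%, 4.76% and 2.83% of all genes. With age, 16 of the 19 unfolded protein response genes had a negative rho, with a median of -0.43. Over all genes the median was -0.02, and 47.5% had a positive rho. Of these 19, 4 had an unadjusted p under 0.05 (Spearman's rho, exact permutation), against 4.76% of all genes. The number of reads on genes fell with age in the same cats, and its part here was not tested. PDIA3, a disulfide isomerase of the ER singled out after its value was seen, was at -0.78 (exact permutation p = 0.0172, adjusted p = 0.851), and HSPA5 was at -0.43 (exact permutation p = 0.25, adjusted p = 0.959). Between congestive HF and ATE the difference of HSPA5 was -0.01 with an SE of 0.33 (adjusted p = 0.998, limma), and its rho with fibrosis was 0.14 (exact permutation p = 0.752).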

How the data were processed

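Per the study's methods, bases were called by Guppy and reads of sufficient quality were aligned to felCat9 (Minimap2) and assigned to genes (FeatureCounts). The deposited signal values are such reads after division by a single size factor for the library, a step recognised from the values: in each library, 100% of them were whole multiples of 1 read's worth (tolerance 1e-06). The whole reads recovered in this way gave read ratios, intervals and depth (789257 to 2263110 per library).

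Flow cell and cat number came from the sample labels, and outcome, age and myocardial fibrosis were joined by cat number from the study's list of animals. The 10 genes, the gene lists and the tests were chosen with earlier results of these data known. The filter was a minimum of 10 reads in 3 or more of 10 libraries. Groups were compared with limma (intensity trend) on log2(value + 1), which understates the change of low genes, and traits with Spearman's rho and a two-sided exact permutation over cats. Adjusted p-values are Benjamini-Hochberg values over 8715 genes. Each library is 1 cat, so a difference between cats includes that between library preparations. The named genes were the 10 genes, called genes of the lists, the 3 genes most like VCP, FAF1 and UFD1, and HSPA5. Members given in detail for a comparison, and PDIA3, were singled out after their values were seen, and HERPUD1, OS9, EDEM1, BAG6 and RAD23B are given only as examples of what a list holds.

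On simulated data with a planted log2 change of 2, limma recovered most of the changes, but not all, at the adjusted threshold. The differences of the genes chosen by name were smaller in size. The largest were 0.59 (DERL1, flow cell A), -0.97 (UFD1, flow cells B and C) and 0.66 (DERL2, congestive HF and ATE). Recovery at such sizes was not tested, so the lack of calls does not show these differences to be absent. With a planted log2 range of 3, Spearman's rho recovered few of the changes for age and none for fibrosis at the adjusted threshold. Alternatives were pseudocounts of 0.5 and 2, other filters, TMM-scaled CPM, unscaled reads, edgeR's quasi-likelihood test and DESeq2 on recovered reads, other groupings of flow cells, flow cell as a covariate, limma slopes, Pearson's r, each cat left out, and the use of cats 22 and 29, or of cats 16 and 25, for the 2 libraries without a known outcome. MAN1B1, DDI2 and MYH7, members of the lists, were not analysed here, and 1 further gene of the pathway is not reported here. No gene sequences, coordinates or lengths were used. Software was limma 3.58.1, DESeq2 1.42.0 and edgeR 4.0.16 in R 4.3.3, together with scipy 1.17.1, matplotlib 3.10.9, numpy 2.4.6 and pandas 2.3.3 in Python 3.11.15.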

Additional observations from a re-analysis of the deposited data

Results flagged for a closer look

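Each of the 10 genes was examined in the 3 flow cells and in the cats with congestive HF for a library whose gap to its nearest neighbour took most of the range of the group (Dixon's 95% critical value). Of 40 groups, 2 held such a library. Chance gives about 1 in 20, so this count is no more than chance gives. The groups also share libraries and are not independent. Both flags fell on the library of cat 15. FAF1 was at 226 there (166 reads), against 109 to 120.2 in the other 3 libraries of flow cell B. UFD1 was at 4.08 (3 reads), against 16.7 to 23.6 in the other 5 cats with congestive HF.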

How the results depend on the processing

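In each comparison, 0 of the 10 genes were called under every alternative run, from 13 for flow cells B and C to 23 for flow cell A. The smallest adjusted p of any of them was 0.116, for flow cell A without cat 35. A count of 0 is no sign of stability where the adjusted threshold could hardly be reached, as for age and fibrosis, and a p that misses it does not show values to be alike. With at least 10 reads in all 10 libraries, 7 of the 10 were tested. Of 18 values of single genes, 14 kept their sign throughout. The others were UFD1 for flow cell A against C alone (-0.11) and FAF1 for flow cell A with unscaled reads (0.065), and, for fibrosis, UBXN4 with unscaled reads (rho -0.36) and DERL1 with 1 cat left out (-0.39 to 0.11).

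The count over all genes for flow cell A, 446, moved to 830 with DESeq2, 183 against flow cell B alone, 67 against C alone, 80 with unscaled reads and 4 in congestive HF only, and ran from 51 (without cat 11) to 501 (without cat 30), with 129 without cat 31 and 295 without cat 15. The cause was not tested, apart from fewer libraries in the subsets. For flow cells B and C it was 0 to 2 with 1 cat left out. For congestive HF and ATE it was 1 with DESeq2, 1 with every gene that had a read and 0 to 1 with 1 cat left out. No paired analysis was possible because each cat has 1 library. For UFD1, FAF2 and SYVN1, with 2 or 3 reads or fewer in some libraries, depth limits every comparison.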
